A study of Mus musculus with 48 samples.

Results

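The regions described here are stretches of intron in which an m6A peak was called in some of the 24 mouse hippocampi of the study and not in others. The peaks of the 24 per-animal m6A immunoprecipitation lists were joined wherever they overlapped by at least 1 bp, which gave 81807 common regions. Of these, 39806 were called in 3 to 23 animals, and 15663 of the variable regions had their midpoint inside a protein-coding gene of the mm9 (NCBIM37) annotation but in no coding sequence (CDS) or untranslated region (UTR). They are referred to as variable intronic regions, and a region is "called" in an animal when that animal has a peak in it. They made up 39.4% of all variable regions, against 22.1% in CDS and 9.998% in 3′UTRs, and 28486 of the 81807 common regions were intronic in all.

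The study asked how m6A on hippocampal RNA differs with the Huntington's disease mutation and after a spatial learning session. Wild-type mice (WT, HdhQ7/7) were compared with Hdh+/Q111 knock-in mice (KI), which carry an expanded CAG stretch in exon 1 of one allele of the huntingtin gene, in every cell and from birth. Mice of each genotype were 5 months old (pre-symptomatic, per the labels) or 8 months old (symptomatic), and were either naive or trained in the object location task and killed 30 min later. Each of the 8 conditions had 3 animals, each with an m6A immunoprecipitation and a matched input library; all groups are whole hippocampus, so that fewer cells of a type and less RNA per cell cannot be told apart. Between 16 and 19 of 19 markers of hippocampal neurons had a peak in every animal, and the choroid plexus markers Ttr and Aqp1 had none in any animal, although 1 to 8 of 10 choroid plexus markers, 8 to 12 of 13 striatal markers and 10 to 13 of 14 oligodendrocyte markers had one.

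N6-methyladenosine is the most abundant internal modification of messenger RNA. The METTL3 and METTL14 methyltransferase complex writes it during transcription, mostly within a short consensus centred on GGAC, and the mark concentrates around stop codons and in 3′UTRs of mature transcripts. Introns carry it on precursor RNA that has not yet been spliced, and in neurons the longest introns belong to genes for synaptic adhesion molecules, receptors and ion channels.

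The intronic label covered 2 kinds of region, which differed in sequence, position and behaviour with age. In 5173 of the 15663 regions (33.0%) the region reached into a CDS or UTR although its midpoint did not, and in 10490 no base lay in either. The first kind sat against exons: among the 4809 that could be placed in an intron of the transcript with the longest CDS, the midpoint lay a median of 38 bp from the nearest exon edge, 3900 (81.1%) lay nearer the 3′ than the 5′ end of their intron, towards the exon that follows, and the strongest summit fell inside the exon in 2060 (42.8%). The regions clear of exons lay deep in long introns, with a median distance of 7030 bp to the nearest exon edge and a median intron length of 39169 bp, against 2326 bp for the introns of exon-touching regions and 1314 bp for all 184415 introns of the numbering transcripts. The midpoint of 14927 of the 15663 regions lay in no exon of any annotated transcript, and 331 (2.11%) lay in an exon of a transcript annotated as retained intron.

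The exon-touching kind is shown by 5 regions chosen for their small p-values in the tests of genotype, training or age. Each stretch runs 5′ to 3′ on the transcribed strand of mm9, with the end of the intron in lower case and the first 15 bases of the exon in capitals; each intron end reads ag, the usual splice acceptor. Accn1, now named Asic2, encodes an acid-sensing ion channel, Pik3r1 a regulatory subunit of phosphoinositide 3-kinase, Cnpy3 a chaperone of Toll-like receptors, and Fli1 an ETS transcription factor.
Accn1 (chr11:80766095-80766124, minus strand): tgtttgttctttcagAGGAAACAACGTTTG
Pik3r1 (chr13:102478935-102478964, minus strand): tgttttgtgtcctagGACTGGAATGTTCGA
Cnpy3 (chr17:46874784-46874813, minus strand): ggtggcctcttccagGGTATGTCGGAGACC
Hmgxb4 (chr8:77544128-77544157, plus strand): tctttatggctctagCCGAAAAAGAAGAAC
Fli1 (chr9:32269025-32269054, minus strand): atctctccactgcagACCCCACACTGTGGA

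The regions clear of exons often held long purine tracts. The next stretches come from 2 introns of Htt, which encodes huntingtin, and from Cdh8, which encodes a neuronal cadherin. Purines that belong to the longest uninterrupted run of A and G within 100 bases of the summit are in capitals; the runs are 128, 107 and 31 bases long and continue beyond the 30 bases shown.
Htt intron 2 (chr5:35125891-35125920, plus strand): AAGAAGAAGGAAGGAAGAAGGAAGGAAGAA
Htt intron 61 (chr5:35246396-35246425, plus strand): AAAGAAAGAAAGAAAGAAAGAAAGAAAGAA
Cdh8 intron 4 (chr8:101749247-101749276, minus strand): AGAGAGAGAGAGAGAGAGAGAGAGAGAGAG
A run of 8 purines was the longest beside the summit of the Htt intron 1 region, the only one that differed between genotypes after adjustment.
Htt intron 1 (chr5:35105056-35105085, plus strand): atgactgttgtGAAGAGAActtggagaggc

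Regions of 3 unrelated genes, Nrcam (a neuronal cell adhesion molecule), Atg10 (an autophagy enzyme) and Lrrc7 (densin, a postsynaptic scaffold protein), shared 11 bases around a GGAC beside the summit, shown in capitals. These 11 letters, AAATGGGACCT, stood within 100 bases of the summit on the transcribed strand in 134 of 10322 regions clear of exons (1.298%), on the opposite strand in 9 and, 1000 bases away, in 39. No repeat annotation was used here, so whether these stretches are copies of one element was not tested.
Nrcam intron 3 (chr12:45589708-45589737, plus strand): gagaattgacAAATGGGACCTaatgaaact
Atg10 intron 4 (chr13:91167727-91167756, minus strand): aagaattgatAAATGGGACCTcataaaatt
Lrrc7 intron 9 (chr3:157895762-157895791, minus strand): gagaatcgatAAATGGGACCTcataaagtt

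Over all regions clear of exons, tracts of this kind were common at the summit and strand-specific. The search was for 5 purine tracts of 12 bases: 6 copies of GA, 3 of GAAA, 3 of GGAA, 4 of GAA and 4 of GGA, each starting at any base of its unit, so that a region can hold more than 1. At least 1 stood within 100 bases of the summit on the transcribed strand in 2466 of 10322 regions (23.9%), on the opposite strand in 3.44%, and on the transcribed strand 1000 bases away in 1.33%. The GA repeat was the most frequent, in 1256 regions (12.2%, against 1.10% on the opposite strand), followed by GAAA repeats in 872 (8.45%). A tract of 6 copies of CA stood in 749 (7.26%), against 1.77% on the opposite strand. Purines made up 61.7% of the bases within 50 bases of the summit, against 50.6% of the bases 1000 bp away. The tracts were chosen after the sequences had been seen, so these shares are a description with no test. According to the study's methods, only uniquely mapped reads were kept and reads in repetitive regions were removed before peaks were called; which regions these were is not given in the sources used here.

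**Figure D1:**
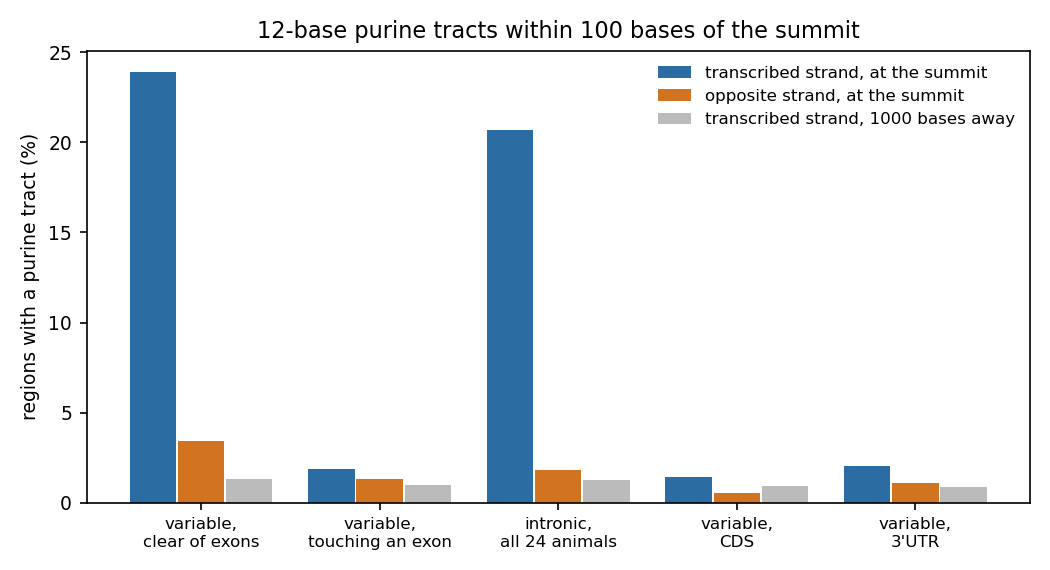
Share of regions (%, vertical axis) with at least 1 of 5 purine tracts of 12 bases within 100 bases of the summit, for 5 classes of region and for the transcribed strand, the opposite strand and a point 1000 bases away. Tracts stood on the transcribed strand in 23.9% of variable regions clear of exons and 20.7% of intronic regions called in all 24 animals, and in 1.88% of exon-touching, 1.43% of CDS and 2.02% of 3′UTR regions.

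Exon-touching regions lacked this signature, with a purine tract in 1.88% and 49.2% purines at the summit, values close to the 1.43% and 50.6% of variable CDS regions. Of the 1537 intronic regions called in all 24 animals that could be read, 318 (20.7%) held a tract as well. Regions with and without a tract, among those clear of exons, had the same median of 8 animals with a call and medians of 5.30 and 4.94 for the mean fold enrichment over the animals called. Fold enrichment is the peak caller's ratio of immunoprecipitated to input signal at the summit.

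Compared within each animal with the variable regions of CDS and 3′UTRs, the intronic peaks were shorter, more enriched and poorer in the m6A consensus. The median intronic peak length averaged 234 bp ± 64.7 over the animals (SD, n = 24), against 284 bp ± 79.1 in CDS and 290 bp ± 71.7 in 3′UTRs, and was lower than both in all 24 animals. Median fold enrichment averaged 4.76 ± 0.247 in introns, 3.79 ± 0.253 in CDS and 3.81 ± 0.145 in 3′UTRs, and was higher in introns in all 24 animals. Only called peaks have such a value, and the part of peak calling and of the input signal in this difference was not tested. A GGAC stood within 50 bases of the summit in 30.4% ± 2.63 of intronic peaks, 43.9% ± 1.78 of CDS peaks and 44.2% ± 2.51 of 3′UTR peaks. Each of the 6 differences had p = 1e-05 in a two-sided sign-flip permutation test over the animals, the smallest value that 100000 draws can give, with an adjusted p of 1e-05. The animals share many of these regions and their sequence, so this test covers the spread between animals and not that between regions. Among regions clear of exons the shortfall in GGAC was larger, at -15.9 percentage points against CDS, and the excess in fold enrichment was 1.15. On the transcribed strand GGAC was more frequent at intronic summits clear of exons (28.1%) than on the opposite strand (13.2%) or 1000 bases away (24.6%). The study's wider consensus, DRACH (D any base but C, R a purine, H any base but G), was less frequent at these summits (77.96%) than 1000 bases away (85.9%). On the opposite strand it stood in 54.97%. At 3′UTR summits DRACH was more frequent (91.2%) than 1000 bases away (85.2%). The part of the purine-rich sequence in these contrasts was not tested.

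Variable intronic regions were called in a median of 8 of the 24 animals, and few were called in all animals of 1 condition and in none of the others. The number of regions fell from 2255 called in 3 animals to 390 called in 17, and rose again to 729 called in 23; just outside the limits of the selection lay 3284 intronic regions called in 2 animals and 1583 called in all 24. The median in CDS was also 8 animals, against 12 in 3′UTRs. In 2500 regions (15.96%) no condition had a call in at least 2 of its 3 animals, in 3557 (22.7%) 1 condition had, and in 1806 (11.5%) all 8 had. Calls of 2 animals of a condition shared a mean of 0.423 of the regions called in either, against 0.398 for animals of different conditions (24 and 252 pairs). Regions called in all 3 animals of a single condition and in none of the other animals numbered 25 in naive KI mice of 8 months (0.160%, against 0.131% of all variable regions), 4 in naive KI mice of 5 months (0.0255%, against 0.01%), 1 in trained KI mice of 5 months (0.00638%, against 0.00754%) and 0 in the other 5 conditions.

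The spread of regions over intron numbers was close to that of intron length. The first intron held 3743 of the 14143 numbered regions (26.5%) and 26.01% of the intron length of genes with any common region, intronic or not. Intron 2 held 2115 (14.95%) and 15.4%, and intron 3 held 1570 (11.1%) and 10.4%. Density lay between 17.4 regions per Mb in introns numbered 4 and 19.6 in those numbered 3, with 18.6 in first introns. Regions clear of exons gave 12.9 per Mb in first introns and 10.7 per Mb beyond intron 10. The share that touched an exon was lowest in introns numbered 3 (29.5%) and highest beyond intron 10 (39.1%), where introns with a region were shortest (median 5476 bp, against 41828 bp for first introns). Within introns of 10000 bp or more, the 7016 regions clear of exons were fewest at the 3′ end. Of 10 equal parts counted from the 5′ end, part 1 held 686 (9.78%) and part 5 the most at 806 (11.5%). Part 10 held the fewest, at 419 (5.97%). Exon-touching regions were left out of this count. In introns of any length, part 10 held 70.4% of exon-touching regions and 27.4% of all numbered regions. Part 1 held 9.898% and 9.185%. How far this selection made the shortfall at the 3′ end was not tested.

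**Figure D2:**
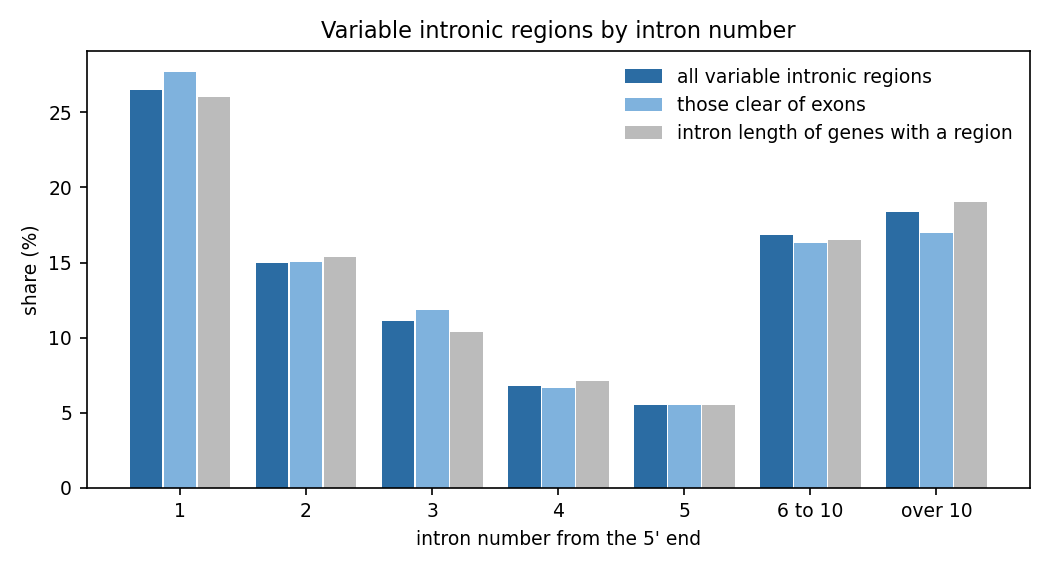
Share (%, vertical axis) of all variable intronic regions, of those clear of exons, and of the intron length of genes with any region, by intron number counted from the 5′ end. The 3 bars stay close in every class, as in first introns (26.5%, 27.7% and 26.01%).

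Genes with long introns held the most regions. A total of 5589 genes had at least 1 region to themselves, 2806 genes had exactly 1, and 243 genes with 10 or more held 26.8% of the regions that lie in a single gene. Their introns were long, with a median of 516 kb, against 48.5 kb for all genes with at least 1 variable intronic region. Ptprd, a receptor protein tyrosine phosphatase of synapses, led with 57 regions, followed by Dlg2 (55), which encodes the postsynaptic scaffold PSD-93, Accn1 (51), Csmd1 (46) and Lingo2 (44). Agbl4 (40), the synaptic scaffold genes Magi2 (38) and Dlgap1 (37), Lrp1b (37), Macrod2 (37), the ephrin receptor gene Epha6 (36), Etl4 (36), Sntg1 (36) and Il1rapl1 (35) completed the list, which ends in a tie, as Lrrc4c also had 35. Gm20388 also had 56, with 68 more shared with genes inside it, but it is a gene model with 4431 kb of intron (chr8:122434741-126869622) that spans many other genes, so its count is not that of one transcript. Only 21 of the 641 regions of these 15 genes touched an exon. Per length the order differed: Dlgap1 held 4.38 and Accn1 4.71 regions per 100 kb of intron, and Lrp1b 1.81. Over all 13119 protein-coding genes with a common region of any kind, intronic or not, the density was 1.84.

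In 3 of the 5 genes densest in regions, most regions touched an exon. Among genes with at least 10 regions, Rassf8 had 15.99 per 100 kb (11 regions), Spnb4 15.8 (13), Bai1 14.96 (10), Lmf1 12.97 (10) and Pcnt 12.2 (10). Spnb4 encodes the βIV-spectrin of axon initial segments, Bai1 (now Adgrb1) an adhesion receptor and Pcnt the centrosomal protein pericentrin, and 10 of 13, 8 of 10 and 10 of 10 of their regions touched an exon. In these 3 genes more regions were called at 8 than at 5 months: a mean of 7.5 ± 2.75 against 3.83 ± 1.59 in Spnb4, 4.92 ± 3.26 against 0.833 ± 0.718 in Bai1, and 6.50 ± 2.54 against 2.83 ± 1.80 in Pcnt (SD, n = 12 animals each). The ranges of the 2 ages overlapped in each gene, and these counts were not tested. All exon-touching regions together also had more calls per animal at 8 months, with means of 2780 against 1421 at 5 months, a ratio of 1.96.

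In the long genes, calls varied within conditions as well as between them. Of the 55 regions of Dlg2, 30, 30 and 34 were called in naive WT mice of 5 months, 15, 25 and 29 in trained WT, 31, 36 and 45 in naive KI and 29, 32 and 36 in trained KI mice of that age. At 8 months the counts were 19, 21 and 28, then 28, 29 and 34, then 21, 30 and 34, and 19, 21 and 27 in the same order of conditions. For Ptprd (57 regions) the lowest, median and highest animals had 14, 27 and 46 calls, for Csmd1 11, 23 and 38, for Accn1 5, 21 and 33, and for Sntg1 5, 11.5 and 22. Sntg1, which encodes a syntrophin, had a mean of 9.50 ± 3.83 calls at 8 months and 14.6 ± 4.81 at 5 months (SD, n = 12 animals each). Of the 15 genes with the most regions, all but Sntg1 had their lowest count, tied in Csmd1 and Agbl4, in 1 trained WT mouse of 5 months. That mouse also had the fewest peaks of all (22601, range 22601 to 57293) and the fewest variable intronic regions (2599).

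**Figure D3:**
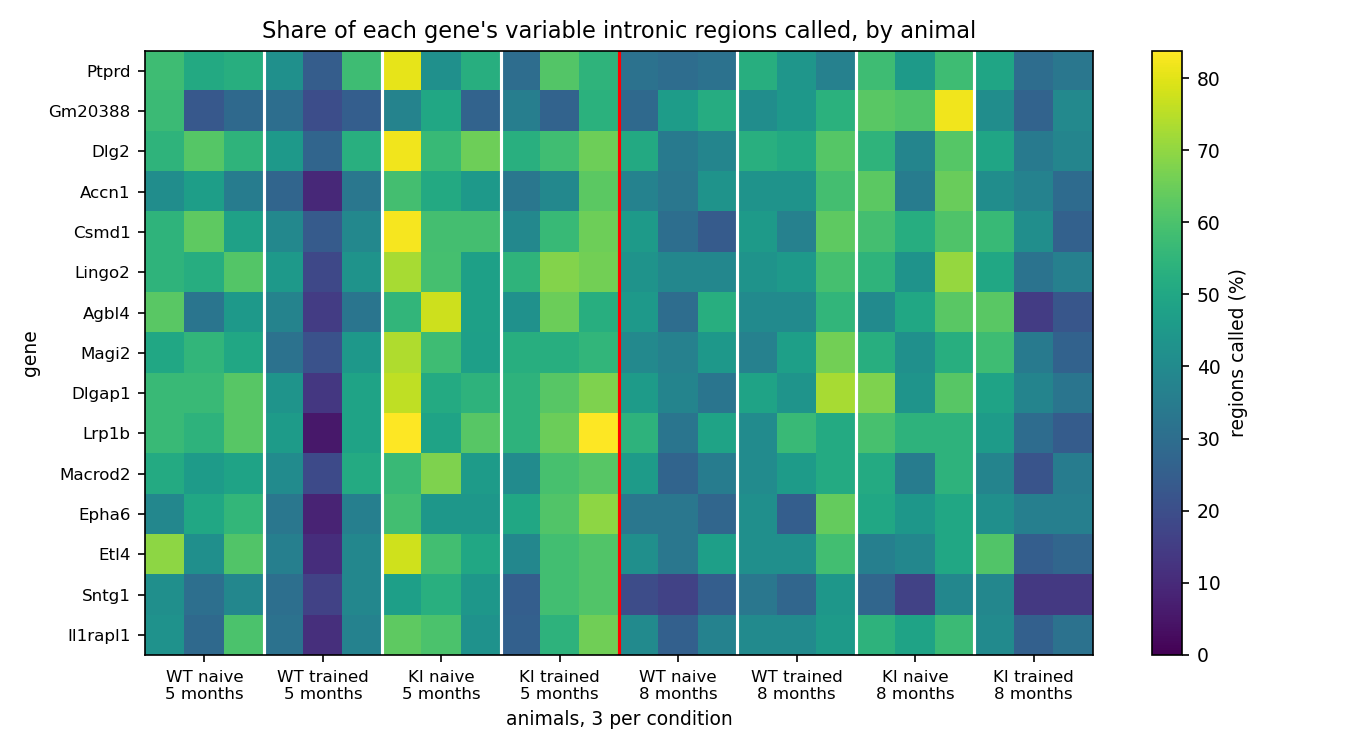
Share of each gene's variable intronic regions that was called (%, colour) in each of 24 animals (columns, 3 per condition) for the 15 genes with the most regions (vertical axis). The red line parts 5 from 8 months, and the dark column among trained WT mice of 5 months is the animal with 2599 regions called.

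By pathway, genes with long introns held the most regions, while densities per length stayed between 1.895 and 2.92 per 100 kb of intron in all 10 lists. All 55 genes of a list of long synaptic adhesion and scaffold genes held a region, with 922 regions and a median of 16 per gene, against a median of 0 over the 13119 genes with any region, but per length the list had 2.08 per 100 kb against 1.84. All 24 glutamate receptor genes held 208 regions (2.28 per 100 kb), led by the metabotropic receptor genes Grm7 (34) and Grm5 (19). GABA receptor and synapse genes held 89 (2.63 per 100 kb), led by Gphn (16), the gene of the scaffold gephyrin, Gabbr2 (15) and Gabrb1 (14). Voltage-gated channel genes held 207 (2.03 per 100 kb), with 25 in Kcnip4, 16 in Kcnd2 and 16 in Kcnh7. Splicing and RNA-binding factors held 131 (2.92 per 100 kb), with 25 in Rbfox1, 15 in Rbfox3 and 13 in Celf4, which encode regulators of neuronal splicing. Phosphodiesterase genes held 67 (1.98 per 100 kb), led by Pde10a (18), Pde4b (13) and Pde1a (12). Among 42 genes that the study linked to Huntington's disease, chosen on these samples, 31 held 252 regions (1.895 per 100 kb), led by Lrp1b (37), Kcnip4 (25) and Kalrn (19), which encodes a guanine nucleotide exchange factor of dendritic spines.

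The remaining lists held few regions and had less intron in total (234.6 to 1260 kb), although Sorcs3 alone has 593.8 kb. Immediate-early and activity-induced genes had 32 regions in 12 of 51 genes, with 10 in Sorcs3, 4 in Sik1 and 3 in Nr4a2, and cytoplasmic ribosomal protein genes had 5 in 4 of 69, in Rpl24 (2), Rpl23a (1) and Rpl26 (1) among them. Of 27 writers, erasers and readers of m6A, 11 held 24 regions, with 5 in the demethylase gene Fto, 5 in the reader gene Igf2bp3 and 3 in Zc3h13, a subunit of the writer complex. At an unadjusted p under 0.05 in Fisher's exact test of each region over 12 against 12 animals, 2 of the 24 regions of m6A genes (8.33%) and 6 of the 32 of immediate-early genes (18.8%) were called more often at 8 months, against 7.82% of all variable regions. In each of these 2 lists 12 regions touched an exon. Over all intronic regions, 21.3% of the exon-touching and 1.15% of the clear ones were called more often at 8 months. The part of this make-up in the shares of the lists was not tested. For genotype and training the counts in both lists were 0, which is uninformative in lists of this size, since only 1.52% or less of all variable regions passed in either direction.

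The number of regions called was higher in KI than in WT mice in 3 of 4 pairs of conditions and lower in trained mice of 8 months. Naive WT mice of 5 months had 5603, 6356 and 6502 regions called and naive KI mice of that age 6512, 7457 and 8671, without overlap and 1.23-fold apart. At 8 months naive WT mice had 5083, 6272 and 6780 and naive KI mice 7097, 9665 and 10671, again without overlap and 1.51-fold apart. Trained mice of 5 months had 2599, 4348 and 5060 in WT and 6482, 6760 and 8015 in KI, 1.77-fold apart, the highest of the 4 ratios, while the difference in number was 3083 regions there and 3099 in naive mice of 8 months. Trained mice of 8 months went the other way and overlapped, with 5698, 7371 and 8923 in WT and 5134, 6129 and 6194 in KI mice. Exact two-sided permutation tests gave p = 0.1 for each of the first 3 comparisons, the smallest value that 3 against 3 animals allow, and p = 0.3 for the last (adjusted over 12 comparisons, 0.171 and 0.36). Over all 24 animals KI mice had a mean of 7399 ± 1600 and WT mice 5883 ± 1584 (SD, n = 12 each, permutation p = 0.0281, adjusted over 3 factors 0.0842). The number of peaks moved with it, at 38715 ± 8073 in KI and 32735 ± 5973 in WT mice. Regions in introns were 37.0% and 36.8% of the variable regions called, a difference of 0.274 percentage points (permutation p = 0.843, adjusted 0.843). Among regions clear of exons, naive mice of 5 months overlapped, at 4728 to 5284 in WT and 5159 to 6769 in KI mice (exact permutation p = 0.2). Naive mice of 8 months and trained mice of 5 months stayed apart there (exact permutation p = 0.1 each). The means of these clear regions over all animals were 4965 in KI and 4116 in WT mice (permutation p = 0.0787, adjusted 0.2).

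Trained mice had fewer called regions than naive mice, without overlap, in 2 of 4 pairs of conditions. In WT mice of 5 months the mean was 4002 ± 1266 after training and 6154 ± 482 without, and in KI mice of 8 months 5819 ± 594 and 9144 ± 1843 (SD, n = 3 each, no overlap, exact p = 0.1, adjusted 0.171). Of the other 2 pairs, in KI mice of 5 months (7086 ± 817 and 7547 ± 1082) and WT mice of 8 months (7331 ± 1613 and 6045 ± 871) the animals overlapped (exact p = 0.6 and 0.3). Among regions clear of exons, only WT mice of 5 months kept this separation (exact permutation p = 0.1). KI mice of 8 months overlapped there, at 2909 to 4478 trained and 4288 to 6083 naive (exact permutation p = 0.2). WT mice of 8 months separated the other way, at 4088 to 5615 trained and 3234 to 3868 naive (exact permutation p = 0.1). The training effect at 8 months differed between genotypes by -4611 regions (exact permutation over 400 arrangements, p = 0.025, adjusted over 4 tests 0.05), and the genotype effect in trained mice differed between ages by -4595 (p = 0.015, adjusted 0.05); neither adjusted value was under 0.05. Among regions clear of exons the same differences were -3111 and -3412 (adjusted p = 0.03 for both, exact permutation). At 5 months the training effects of the genotypes differed by 1690 (exact p = 0.26) and in naive mice the genotype effects of the ages by 1706 (exact p = 0.4).

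**Figure D4:**
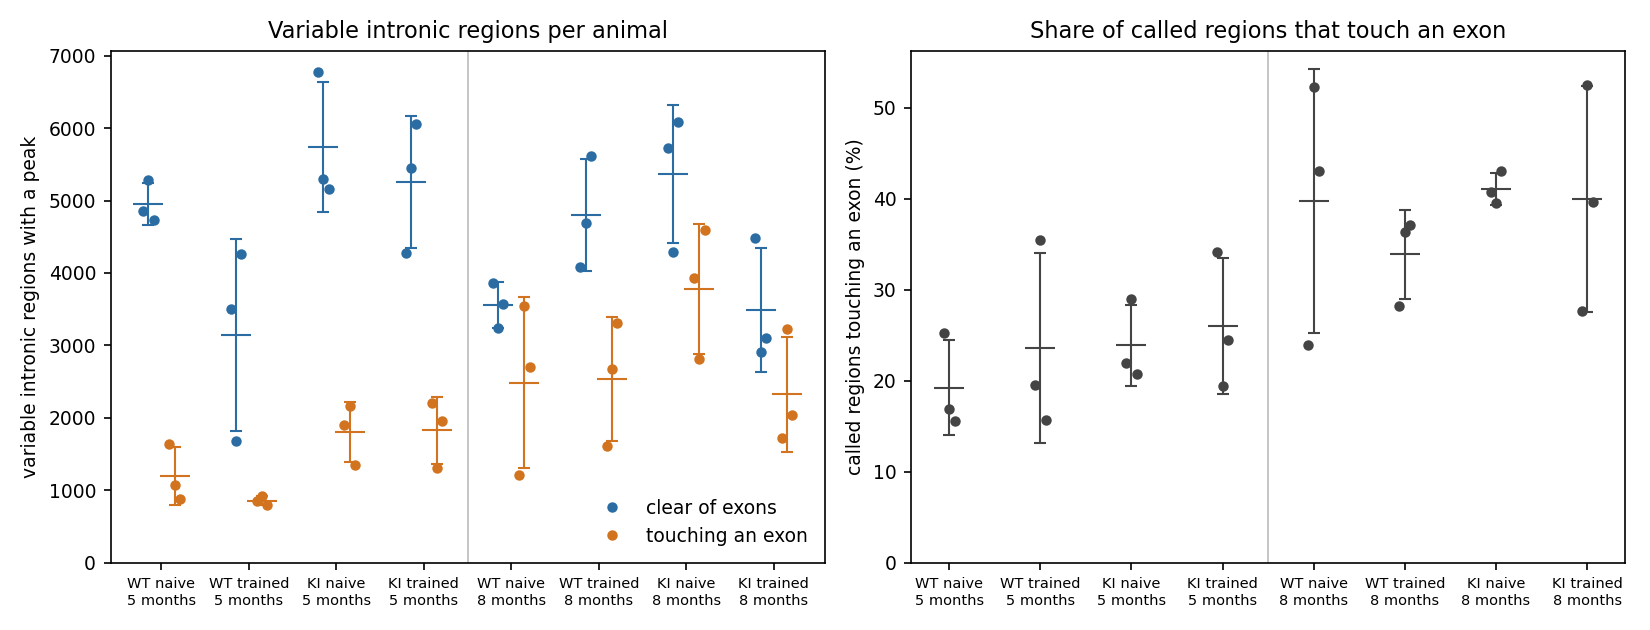
Left, number of variable intronic regions with a peak in each animal, split into regions clear of exons and regions touching an exon; right, share of called regions that touch an exon (%). Points are animals, bars the mean and SD of 3 animals; the share has a mean of 23.2% over the 5-month animals (left of the grey line) and 38.7% over the 8-month animals.

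With age the kind of region called differed, while the number did not pass the test. Mice of 8 months had 7085 ± 1788 regions called and mice of 5 months 6197 ± 1641 (SD, n = 12 each, permutation p = 0.219, adjusted 0.219). Exon-touching regions called numbered 1215 to 4588 (median 2753) at 8 months and 796 to 2212 (median 1334) at 5 months, a 1.96-fold difference in means (permutation p = 0.00037, adjusted over 3 factors 0.00111). Regions clear of exons numbered 2909 to 6083 (median 4188) at 8 months and 1678 to 6769 (median 5010) at 5 months, a ratio of 0.901 (permutation p = 0.342, adjusted 0.342). The share of called regions that touch an exon was 38.7% ± 8.92 at 8 and 23.2% ± 6.72 at 5 months (permutation p = 9e-05, adjusted 0.00027), and was higher at 8 months in all 4 pairs of conditions, by 20.5 points in naive WT, 10.3 in trained WT, 17.2 in naive KI and 13.9 in trained KI mice (exact p = 0.2, 0.2, 0.1 and 0.2, where 0.1 is the smallest possible). It stayed between 14.2 and 17.3 points when any 1 animal was left out. This split was made after the data had been seen. Median peak length was also lower at 8 months (318 bp ± 111) than at 5 months (379 bp ± 76.6; SD, n = 12 each), and the number of peaks higher (38869 ± 8513 and 32580 ± 5129); their part in the shift was not tested, and the labels name no batch.

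The share of introns, of first introns and of purine tracts also differed between ages. Intronic regions were 35.2% of the variable regions called at 8 months and 38.5% at 5 months, a difference of -3.32 percentage points (permutation p = 0.00779, adjusted 0.0234), and the call was lost with an equal number of best peaks per animal (adjusted p = 0.2098) and without 1 of 2 animals (highest adjusted p = 0.0656). First introns held 26.5% ± 1.07 of the called regions at 8 and 28.1% ± 1.68 at 5 months (SD, n = 12 each, permutation p = 0.0122, adjusted 0.0365; highest adjusted p 0.0771 with 1 animal left out). Among regions clear of exons these shares were 27.9% ± 0.846 and 27.5% ± 0.508, in the opposite direction (permutation p = 0.252, adjusted 0.755). The share of clear regions with a purine tract ranged from 15.4% to 27.4% at 8 months and from 19.9% to 35.1% at 5 months, with means of 21.7% and 26.4% (permutation p = 0.0146, adjusted 0.0439; highest adjusted p 0.0861 with 1 animal left out). In 14 of the 24 repeats that left out 1 animal, the first-intron call was lost, and likewise the tract call in 14.

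Among single regions, those called more often at 8 months mostly touched an exon, and how many favoured each age depended on the number of peaks kept. At an unadjusted p under 0.05 in Fisher's exact test of 12 against 12 animals, 1222 of the 15663 regions (7.80%) were called more often at 8 months, against 7.82% of all 39806 variable regions, and 239 (1.53%) more often at 5 months, against 0.827%. With the same number of best peaks taken from each animal, the direction turned, with 343 more often at 8 and 490 at 5 months. At a −log10 q of 5 or more the counts were 533 and 440. Both settings change which regions are variable, and shares over all variable regions are not given for them. Of the 1222, 1101 touched an exon, which is 21.3% of exon-touching regions, against 14% of CDS regions and 7.59% of 3′UTR regions called more often at 8 months. Of the regions clear of exons, 1.15% were called more often at 8 months and 2.21% at 5 months. Of the 2466 clear regions with a purine tract, 2 were called more often at 8 and 79 at 5 months. Of the 7857 without a tract, 115 and 152 were. No region passed after adjustment over all 39806 (0% of all variable regions); the smallest adjusted p was 0.191. Without 1 trained KI mouse of 5 months 1 passed, without 1 naive WT mouse of 8 months 3, and without 1 trained WT mouse of 8 months 5.

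The 5 regions with the smallest p for age were called in nearly all animals of one age. The Accn1 region at the end of intron 2 (chr11:80766022-80766338) had a peak in 12 of 12 animals at 8 months, with fold enrichment from 2.24 to 5.56, and in 1 trained KI mouse at 5 months (3.88). That of Pik3r1 at the end of intron 3 (chr13:102478845-102479157) was called in 12 of 12 and 2 of 12, with 3.96 to 15.3 at 8 months and 5.72 and 5.98 in 2 naive KI mice of 5 months. Cnpy3 (intron 3, chr17:46874681-46875026) and a region in both Gm20388 and Gse1 (chr8:123086337-123086681) were each called in 10 of 12 and 0 of 12. All 4 touch an exon, and the exon edges of the first 3 are printed above. Bach2, a transcription repressor gene, had the opposite pattern deep in intron 2 (chr4:32440453-32441035, 36464 bp from the nearest exon), with 0 of 12 at 8 months and 10 of 12 at 5 months (2.66 to 6.13). In Fisher's exact test these regions had p = 9.62e-06 for Accn1 and 6.73e-05 for the others (adjusted 0.191 and 0.213).

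One region differed between genotypes after adjustment, and it lies in Htt itself. The region (chr5:35104810-35105427, 618 bp) has its midpoint 360 bp into intron 1, close behind exon 1 (chr5:35104393-35104758). Every KI mouse had a peak there (12 of 12), and none of the 12 WT mice had one. Fold enrichment was 7.63, 8.85 and 9.79 in naive KI mice of 5 months and 5.13, 10.4 and 11.2 in trained KI mice of that age. At 8 months it was 2.83, 7.36 and 7.83 in naive and 4.37, 5.50 and 7.22 in trained KI mice, while no WT animal had a peak to give a value. Its p in Fisher's exact test was 7.40e-07 (adjusted over 39806 regions, 0.0294), and it is the only call among all variable regions (0.00251%). In an exact test stratified by training and age 0 regions passed, and in each of the 24 repeats without 1 animal 1 region did. The knock-in allele carries its expanded CAG stretch in exon 1, beside this region, and reads of both genotypes were mapped to the mm9 reference.

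The other 3 Htt regions did not pass the test for genotype. A second region of intron 1 (chr5:35110136-35110454) was called in 4 KI mice, with 4.06, 2.69, 4.85 and 4.23, and in 0 WT mice (Fisher's exact p = 0.0932, adjusted 1). The purine-rich region of intron 2 (chr5:35125641-35126015) was called in 8 KI and 7 WT mice, but in 12 of 12 animals of 5 months and 3 of 12 of 8 months (Fisher's exact p = 0.000337, adjusted 0.213), with 3.71 to 12.0 in the younger animals and 4.72, 4.83 and 6.62 in the older. That of intron 61 (chr5:35246146-35246580), whose midpoint lies in an exon of a retained-intron transcript, was called in 4 KI and 4 WT mice, 6 of them of 5 months.

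Over all regions, 242 of 15663 (1.55%) were called more often in KI mice at an unadjusted p under 0.05, against 1.52% of all variable regions, and 9 (0.0575%) more often in WT mice, against 0.0603%. With equal numbers of best peaks the counts were 52 and 25, and at a −log10 q of 5 or more 126 and 14. Shares over all variable regions are not given for these settings, so the counts do not set intronic regions against the rest. Next to Htt, the smallest p-values belonged to Hmgxb4 (intron 5, exon-touching) and Pcsk2 (intron 5), which encodes a prohormone convertase, each called in 12 KI and 3 WT mice (Fisher's exact p = 0.000337). Nrcam (intron 3, 10 and 1) and Zfpm2 (intron 1, 11 and 2) followed at p = 0.000644 in Fisher's exact test. The adjusted p was 1 for all 4. Where both genotypes had peaks their fold enrichment overlapped: for Hmgxb4 it was 4.17 to 9.11 in KI mice and 5.78, 6.55 and 6.61 in the 3 WT mice.

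For training, 25 regions (0.160%, against 0.113%) were called more often in trained and 175 (1.12%, against 1.15%) more often in naive mice at an unadjusted p under 0.05, and none passed adjustment (0% of all variable regions). With equal numbers of best peaks the excess in naive mice was gone, at 51 and 49, and at a −log10 q of 5 or more the counts were 34 and 88. For these settings too, shares over all variable regions are not given. The region of Cdh8 in intron 4 (chr8:101749150-101749481), with the GA tract printed above, was called in 0 of 12 trained and 8 of 12 naive mice, with 3.23 to 11.5 (Fisher's exact p = 0.00135). Fli1 (intron 3, 3 trained and 11 naive), Atg10 (intron 4, 1 and 9) and Lrrc7 (intron 9, 2 and 10) followed, with Fisher's exact p between 0.00276 and 0.00333. The adjusted p was 1 for all 4, and in each the peaks of naive mice were spread over both genotypes and both ages.

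**Figure D5:**
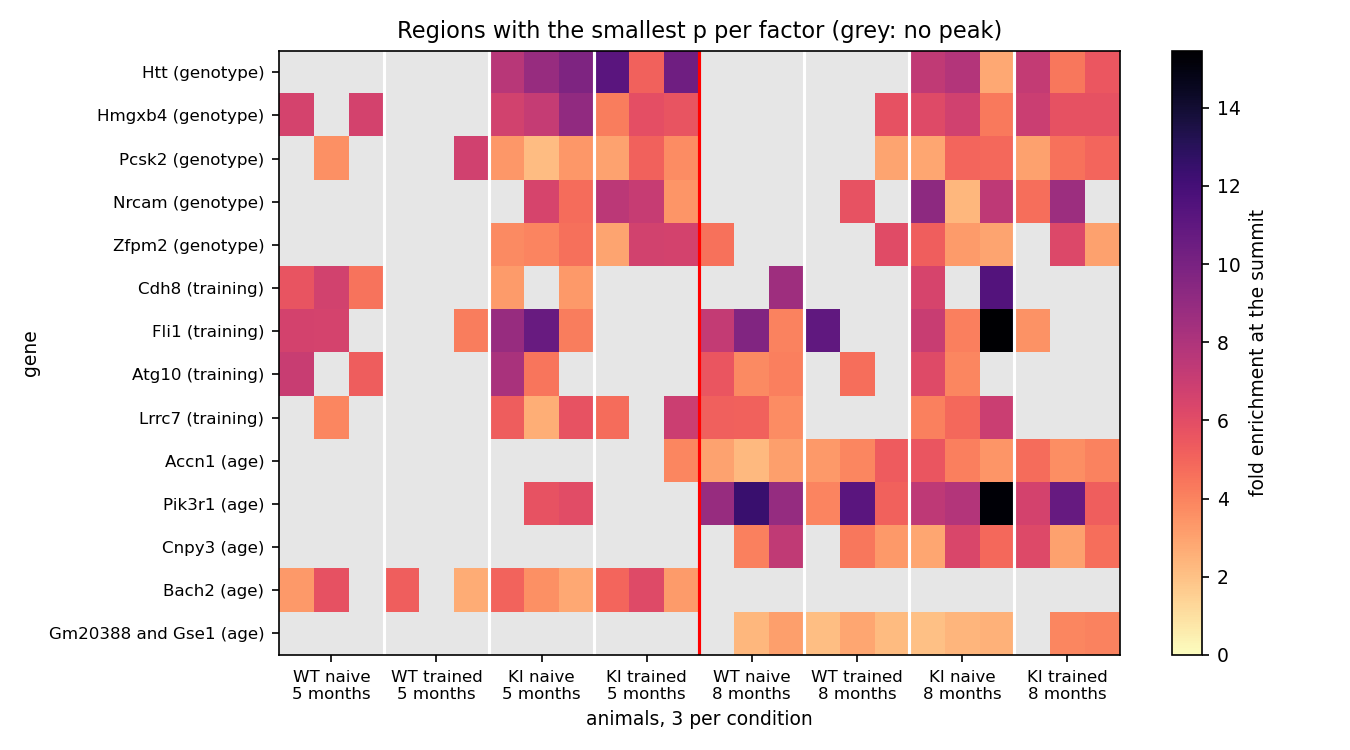
Fold enrichment at the summit (colour) in each of 24 animals (columns, 3 per condition) for the regions named for the smallest p for genotype, training and age (vertical axis, gene names); grey marks animals with no peak. Htt has peaks in all 12 KI animals only, and Accn1 and Pik3r1 in all 12 animals of 8 months, right of the red line.

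Some regions were called in all 3 animals of one condition and in none of another; each count is followed by its share of the intronic regions and of all variable regions. Called in all 3 naive KI and in 0 naive WT mice were 174 regions at 5 months (1.11%, against 0.965%) and 310 at 8 months (1.98%, against 1.88%), while the reverse held for 23 (0.147%, against 0.163%) and 6 (0.0383%, against 0.0628%). Here and below, mean fold enrichment was taken over every animal called, in any condition, and a named region can have calls in conditions not compared. Highest among those with peaks in the KI mice compared were Ptprg (8.13) and Dclk2 (8.04). Highest with peaks in the WT mice compared were Cntn4 (7.90), a contactin gene, and Gm20388 (6.12). Over all conditions Ptprg was called in 11 KI and 5 WT mice, Dclk2 in 8 and 3, Cntn4 in 1 and 8 and Gm20388 in 3 and 6. In trained mice 329 regions at 5 months (2.10%, against 2.17%) and 28 at 8 months (0.179%, against 0.163%) were called in all KI and no WT mice, led by Cadps2 (8.34) and Ptprf (7.55). The reverse held for 8 (0.0511%, against 0.0327%) and 149 (0.951%, against 0.781%), led by Atxn1 (5.79), the ataxin-1 gene, and Rnf150 (8.19).

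Between naive and trained mice, the largest set was 410 regions called in all naive and no trained KI mice of 8 months (2.62%, against 2.44%), of which 182 touched an exon, led by Adamts12 (8.96); the reverse held for 18 (0.115%, against 0.0653%), led by 1300010F03Rik (6.32). In WT mice of 8 months the split ran the other way, with 155 regions in all trained and no naive mice (0.990%, against 0.761%), led by St7 (7.14), and 31 in the reverse direction (0.198%, against 0.244%), led by Fam172a (8.38). In WT mice of 5 months 202 regions were called in all naive and no trained mice (1.29%, against 1.21%), led by Enpp4 (8.34), and 10 in the reverse direction (0.0638%, against 0.0553%), led by Nkx2-2 (6.49). KI mice of that age had 96 of the first kind (0.613%, against 0.518%), led by Fli1 (7.37), and 73 of the second (0.466%, against 0.422%), led by Ppp1r3f (7.43).

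Between ages, regions called in all mice of 8 and none of 5 months were mostly exon-touching and the reverse mostly clear of exons. Naive KI mice had 561 of the first kind (3.58%, against 3.58%), 470 of them touching an exon, and 137 of the second (0.875%, against 0.51%), 132 of them clear of exons; Sema5b (8.04) and Frmd4b (8.295) led. Naive WT mice had 131 (0.836%, against 0.867%; 95 touching) and 186 (1.19%, against 0.739%; 181 clear), led by Pik3r1 (8.22) and Nkap (8.65). Trained WT mice had 486 (3.10%, against 3.09%; 295 touching) and 8 (0.0511%, against 0.0301%), led by Enpp4 and Itfg1 (6.66). Trained KI mice had 58 (0.370%, against 0.46%; 47 touching) and 259 (1.65%, against 1.22%; 240 clear), led by Pik3r1 and Adamts12. Comparisons that share a condition share its animals and are not independent.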

How the data were processed

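The 24 immunoprecipitation libraries each came with a peak list and the 24 inputs served as its control. Per the labels and the study's methods, the authors aligned reads to mm9 with STAR 2.7.3a, kept uniquely mapped reads, removed reads in repetitive regions, and called narrow peaks of each immunoprecipitation against its input with MACS2 2.2.6. The deposited lists give a score, fold enrichment at the summit (a ratio), −log10 p and −log10 q per peak, and the summit's offset. They hold no read counts, and the depth of each library is not given in the sources used here; a missing peak is not a measured absence of m6A. The 10 deposited tables of the authors' own differential analysis (DiffBind 2.8.0) hold their fold changes and p-values and were not used.

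Peaks were joined over animals (1 bp overlap) and placed by midpoint with GENCODE vM1. Introns were numbered in the transcript with the longest CDS. Calls were compared over animals with exact permutation tests (3 against 3), permutation tests with 100000 resamples (12 against 12) and Fisher's exact test per region, with Benjamini-Hochberg adjustment over all 39806 variable regions; all tests were two-sided, in Python 3.11.15 with scipy 1.17.1. Tested on simulated data for the genotype comparison over 39806 regions, Fisher's test recovered 200 of 200 regions planted at 12 against 0 and at 11 against 1 animals, and 0 of 200 at 10 against 2; with 200 planted together the adjustment is easier to pass than for a region on its own, so this overstates what the test finds among few changed regions. The region set and gene lists were chosen with earlier results of these data known, and the list of genes linked to the disease was completed after the values of its other genes had been seen. Named were the 15 genes with the most regions, the 5 densest among those with at least 10, the 5 regions with the smallest p per factor (ties by fold enrichment), the region highest in mean fold enrichment in each complete separation, up to 3 genes per list and all Htt regions; some of these items are not reported here. Alternatives were other peak thresholds, equal numbers of peaks, a 50 bp overlap, regions without any exonic base, other limits on the number of animals, another numbering transcript, a stratified test, and leaving out each animal. No 2 peak lists were identical (0 pairs). The animals of a condition were separate mice.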

Additional observations from a re-analysis of the deposited data

Results flagged for a closer look

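For the number of variable intronic regions called, 2 tests of a difference between effects had an unadjusted p under 0.05, and neither adjusted value was under 0.05. The difference between trained and naive mice of 8 months was -4611 regions in KI relative to WT mice, with every naive KI animal above every trained one and the WT animals overlapping (exact permutation p = 0.025, adjusted over 4 tests 0.05). The difference between KI and WT mice among trained animals was -4595 regions at 8 relative to 5 months (exact permutation p = 0.015, adjusted 0.05). The number of peaks per animal moved in the same way, with means of 48992 ± 9960 and 33735 ± 3978 in naive and trained KI mice of 8 months and 34843 ± 6008 and 37908 ± 5342 in WT mice (SD, n = 3 each), and its part in either difference was not tested.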

How the results depend on the processing

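No paired analysis was possible because each condition consists of different animals, and a number is shared only by an animal's immunoprecipitation and its input, which the peak call had already combined. Apart from leaving out animals, 205 recomputed main values kept their direction and their side of the threshold, 12 reversed, 4 fell short of the threshold, 4 passed it and 1 count moved. The difference in number with age turned to -92.7 (−log10 q of 5 or more), -340 (equal numbers of best peaks) and -471 (no exonic base), and in naive KI mice to -796, -685 and -374. The share of variable regions differed by -1.21 (no exonic base) and -0.267 points (called in 5 to 19 animals) for genotype and by 0.0744 (5 to 19) for training, and for age by -2.51 (q of 3), -2.17 (q of 5) and -2.10 (best peaks), no longer called. First introns differed by 0.334 points with age without exonic bases, and by -1.62, not called, when introns were numbered by the longest span. The training effect of KI less WT mice at 8 months was called at -3352 (q of 3) and -3111 (no exonic base), the genotype effect of 8 less 5 months in trained mice at -4119 and -3412, and in naive mice it was -473 (q of 5) and -189 (best peaks). The Htt call fell to 0 in the stratified test, which compares 3 against 3 animals and cannot bring a lone region past adjustment. The cause of the other changes was not tested. Unadjusted counts per factor (first, second group) with equal best peaks were 52 and 25 for genotype, 51 and 49 for training and 343 and 490 for age. At a −log10 q of 5 or more they were 126 and 14 for genotype and 533 and 440 for age. These counts come without shares over all variable regions under the same setting.

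With 1 animal left out, the number of regions differed by -947 to 92.2 (training, KI, 5 months), -481 to 380 (age, naive WT) and 1203 to 1762 (genotype, called without either of 2 trained 8-month animals, 1 WT and 1 KI). The share of variable regions differed by -0.232 to 0.693 (genotype), -1.22 to 0.392 (training) and -4.25 to -2.90 points (age), first introns by -1.76 to -1.39 (age), exon contact by -2.03 to 1.93 (training) and purine tracts by -1.12 to 0.777 (training) and -5.36 to -3.95 (age). The interactions ran from -5528 to -3751 and from -5396 to -3780, and between 0 and 5 regions passed for age. Exon contact and purine tracts were added after the data had been seen. Peak lists without counts limit every result to presence or absence of a call.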
